A study of Mus musculus with 6 samples.

Results

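The small leucine-rich proteoglycans examined here are 8 secreted matrix proteins encoded by *Ogn*, *Aspn*, *Omd*, *Dcn*, *Lum*, *Bgn*, *Fmod* and *Prelp*. They are 8 of the 16557 genes that the count tables of 6 mouse rhabdoid tumors list between them, and were taken by name. A gene that a table did not list was counted as 0. Single cells had been sequenced with 10x Genomics 3′ chemistry from 3 spinal tumors of the MYC subgroup (MYC spinal 1, 2 and 3, from mice aged 19, 26 and 17 weeks) and from 3 extracranial rhabdoid tumors (eRT 1, 2 and 3, from mice aged 17, 29 and 22 weeks), numbered here in the order of deposit. All 6 tumors had lost *Smarcb1*, which encodes a subunit of the SWI/SNF chromatin remodeler, after tamoxifen was given to the pregnant dams in early gestation of pups with floxed *Smarcb1* alleles. The spinal tumors and eRT 1, which grew in a gland, came from the Rosa26-cre strain, in which a ubiquitous promoter drives the tamoxifen-inducible recombinase. By the labels, eRT 2 of the jaw and eRT 3 of the shoulder came from the Sox2-cre strain, whose promoter is active in the early embryo. The Sox2-cre strain thus occurs among eRT only, and strain and subtype cannot be fully told apart. Each tumor is 1 mouse and 1 library, and 22163 cells were kept. All 8 genes were listed in the table of eRT 3, 7 in those of MYC spinal 3 and eRT 2, 6 in that of eRT 1, 5 in that of MYC spinal 1, and only *Dcn* in that of MYC spinal 2. Each table lists genes found in at least 3 cells, so a gene that is not listed may still have had UMIs in up to 2 cells.

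Small leucine-rich proteoglycans are built around a curved core of leucine-rich repeats, to which most members attach chondroitin, dermatan or keratan sulfate chains. They are secreted by fibroblasts and other mesenchymal cells, coat collagen fibrils and tune their assembly. Several of them also bind transforming growth factor β and cell surface receptors.

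In the GENCODE annotation of GRCm38 (mm10), 7 of the 8 genes lay in 3 short gene clusters. *Aspn* (chromosome 13, 49544443 to 49567565), *Omd* (49582462 to 49592822) and *Ogn* (49608046 to 49624501) followed each other on the plus strand within 80059 bases, next to their relative *Ecm2* and with no other protein-coding gene between them. *Dcn* (chromosome 10, 97479609 to 97518143) and *Lum* (97565128 to 97572703) were neighbors on the plus strand, 46984 bases apart. *Prelp* (chromosome 1, 133910304 to 133921414, minus strand) and *Fmod* (134037254 to 134048277, plus strand) pointed away from each other, 115839 bases apart. *Bgn* stood apart on chromosome X (73483602 to 73495933, plus strand).

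RefSeq promoter windows (GRCm38.p6, 250 bases before to 50 after the start) matched 6 of the 8 members, all but *Dcn* and *Lum*. Those of the 3 chromosome 13 neighbors are shown because *Ogn* and *Aspn* were found together in tumor cells of both subtypes while *Omd*, between them, stayed low. Each run holds the 240 bases before the start, 5′ to 3′ on the plus strand, and capitals mark the letters TATAAA on either strand.
Aspn, chr13:49544203-49544442: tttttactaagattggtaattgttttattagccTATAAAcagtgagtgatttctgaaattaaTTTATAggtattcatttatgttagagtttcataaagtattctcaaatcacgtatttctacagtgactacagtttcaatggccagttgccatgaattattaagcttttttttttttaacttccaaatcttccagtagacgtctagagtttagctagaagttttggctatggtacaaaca
Omd, chr13:49582222-49582461: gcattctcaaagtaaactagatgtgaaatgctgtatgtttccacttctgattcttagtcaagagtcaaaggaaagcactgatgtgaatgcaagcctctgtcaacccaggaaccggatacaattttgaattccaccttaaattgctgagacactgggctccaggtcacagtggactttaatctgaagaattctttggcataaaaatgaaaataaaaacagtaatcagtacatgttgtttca
Ogn, chr13:49607775-49608014: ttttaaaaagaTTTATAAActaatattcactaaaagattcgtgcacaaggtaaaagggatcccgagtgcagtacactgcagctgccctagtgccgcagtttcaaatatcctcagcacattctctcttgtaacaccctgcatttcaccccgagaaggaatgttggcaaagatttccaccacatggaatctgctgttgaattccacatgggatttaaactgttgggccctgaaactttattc
TATAAA was found in the windows of *Ogn* (2 matches that overlap on opposite strands) and *Aspn* (2 separate matches) and in 13.6% of the 32851 windows of all genes. CACGTG, found in 7.15% of all windows, and TGACTCA, found in 5.2%, had no match in any of the 6 windows on either strand.

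Tumor cells were those in clusters whose *Smarcb1* UMIs came to under 0.25 of the number expected at the level of the tumor's own immune-like cells. Such a cluster also needed at least 10 expected *Smarcb1* UMIs, pooled over its tumors. Cells outside the tumor class whose cluster met no rule for cell type markers are called unnamed. The members were left out of the genes used for clustering, although genes that vary with them stayed in. This gave 96, 15 and 1455 tumor cells in MYC spinal 1, 2 and 3 and 68, 203 and 597 in eRT 1, 2 and 3, with 44738 to 7997395 UMIs each. *Smarcb1* stood at 0 to 6.41 UMIs per 1000000 UMIs (CPM) in tumor cells and at 27.1 to 60.1 CPM in the other cells. In MYC spinal 2, the 15 tumor cells had 0 *Smarcb1* UMIs among 44738, and neutrophil markers summed to 17412 CPM in them against at most 870 CPM in the tumor cells of the other tumors. At that depth 3 UMIs are worth 67.1 CPM, above the *Smarcb1* level of the other cells, so the 0 says little about loss. The class of these 15 cells rests on the cluster that they share with MYC spinal 1 and 3. This library enters the MYC spinal means with the same weight as the others, with genes it does not list at 0, and its values rest on few cells. In the MYC spinal fits its sums enter at their own depth. *Ogn* and *Aspn* were at 0 in both of its sums, so their fold changes there rest on MYC spinal 1 and 3. Levels are given in CPM with exact 95% Poisson intervals, which, like the binomial intervals of shares, cover counting error only. Of the clusters classed as tumor by this limit, 2 met the marker rule for fibroblast-like cells, the cluster of 20, 56 and 556 cells in the 3 eRT (markers *Pdgfra*, *Pdgfrb*, *Col1a1*, *Col1a2*, *Col3a1*, *Mfap5* and *Lox*) and one of 96 cells in MYC spinal 3 (*Col1a2*, *Col3a1* and *Lox*), and 1 more met that for epithelial-like cells (*Epcam*, *Krt8* and *Krt18*, 38 cells of eRT 1 and 2 of eRT 2). Their *Smarcb1* UMIs came to 0.061, 0.077 and 0 of the number expected, and they are counted as tumor cells here. The counts come from transcript 3′ ends and carry no factor for gene length.

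*Ogn*, which encodes osteoglycin or mimecan, was the member with the most UMIs in the tumor cells of 4 of the 6 tumors. It reached 772 CPM (95% interval 700.2 to 849) in MYC spinal 1 and 156 CPM (148 to 165) in MYC spinal 3, was not listed in MYC spinal 2, and stood at 376, 623 and 173 CPM in eRT 1, 2 and 3. A UMI of *Ogn* was seen in 76 of 96 tumor cells in MYC spinal 1, 631 of 1455 in MYC spinal 3, 45 of 68 in eRT 1, 127 of 203 in eRT 2 and 233 of 597 in eRT 3. In the immune-like class of these tumors it lay between 0.418 CPM (eRT 3) and 12.3 CPM (MYC spinal 3). By these summed levels *Ogn* was higher in tumor cells than in immune-like cells in each of these 5 tumors, although not every tumor cell had a UMI of it. The highest tumor-cell levels, in MYC spinal 1 and eRT 2, belonged to different subtypes.

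*Aspn* encodes asporin, a relative of decorin that lacks a glycosaminoglycan chain and binds transforming growth factor β. It ranged less than *Ogn*, *Dcn* or *Lum*, at 130 CPM (101 to 163) in MYC spinal 1, 102 CPM (94.8 to 109) in MYC spinal 3, and 103, 179 and 202 CPM in eRT 1, 2 and 3. Immune-like cells of these tumors had 0.50 to 4.97 CPM. *Omd*, which encodes the keratan sulfate proteoglycan osteomodulin of bone, stayed far below its neighbors, with 10, 37, 4, 2 and 6 UMIs in the tumor cells of MYC spinal 1 and 3 and eRT 1, 2 and 3. That is 18.3 CPM at most, in MYC spinal 1.

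*Dcn* encodes decorin, which binds collagen fibrils and inhibits transforming growth factor β and the epidermal growth factor receptor. Its tumor-cell level was 110 CPM (83.6 to 141) in MYC spinal 1, 67.1 CPM (13.8 to 196) in MYC spinal 2, from 3 UMIs, and 2.13 CPM (1.24 to 3.4) in MYC spinal 3. In eRT it was 89.7, 589 and 486 CPM in eRT 1, 2 and 3. The tumor cells of MYC spinal 3 thus held only 17 *Dcn* UMIs, in 10 of 1455 cells, and their interval overlapped that of its immune-like cells (2.08 CPM, 1.36 to 3.05).

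*Lum* encodes lumican, a keratan sulfate proteoglycan that spaces collagen fibrils in cornea, skin and tendon. The level in MYC spinal 1 was 93.1 CPM (69.3 to 122), and the 3 eRT had 235, 454 and 124 CPM. In MYC spinal 3 the gene was listed but had 0 UMIs among 7997395 in tumor cells, where 3 UMIs would be 0.375 CPM (exact 95% Poisson upper limit 0.461 CPM), and its 6 UMIs lay in 3 cells of an unnamed cluster. MYC spinal 1 and 3 therefore differed in *Dcn* and *Lum* far beyond counting error, while their *Aspn* levels, 130 and 102 CPM, had overlapping intervals.

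*Prelp* encodes a proline- and arginine-rich relative that binds heparan sulfate and anchors basement membranes. It was found in tumor cells of eRT 3 at 169 CPM (154 to 185; 242 of 597 cells), with 1 UMI in those of eRT 2, and was not listed in the other 4 tables. *Bgn*, which encodes biglycan, a ligand of Toll-like receptors TLR2 and TLR4, had 2 UMIs in tumor cells of MYC spinal 3 and 33 in those of eRT 3, all 33 in 10 cells. *Fmod*, which encodes the collagen-binding keratan sulfate proteoglycan fibromodulin, had 2 UMIs in 1 tumor cell of eRT 3 and none in those of MYC spinal 3, and was not listed in the other 4 tables.

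**Figure D1:**
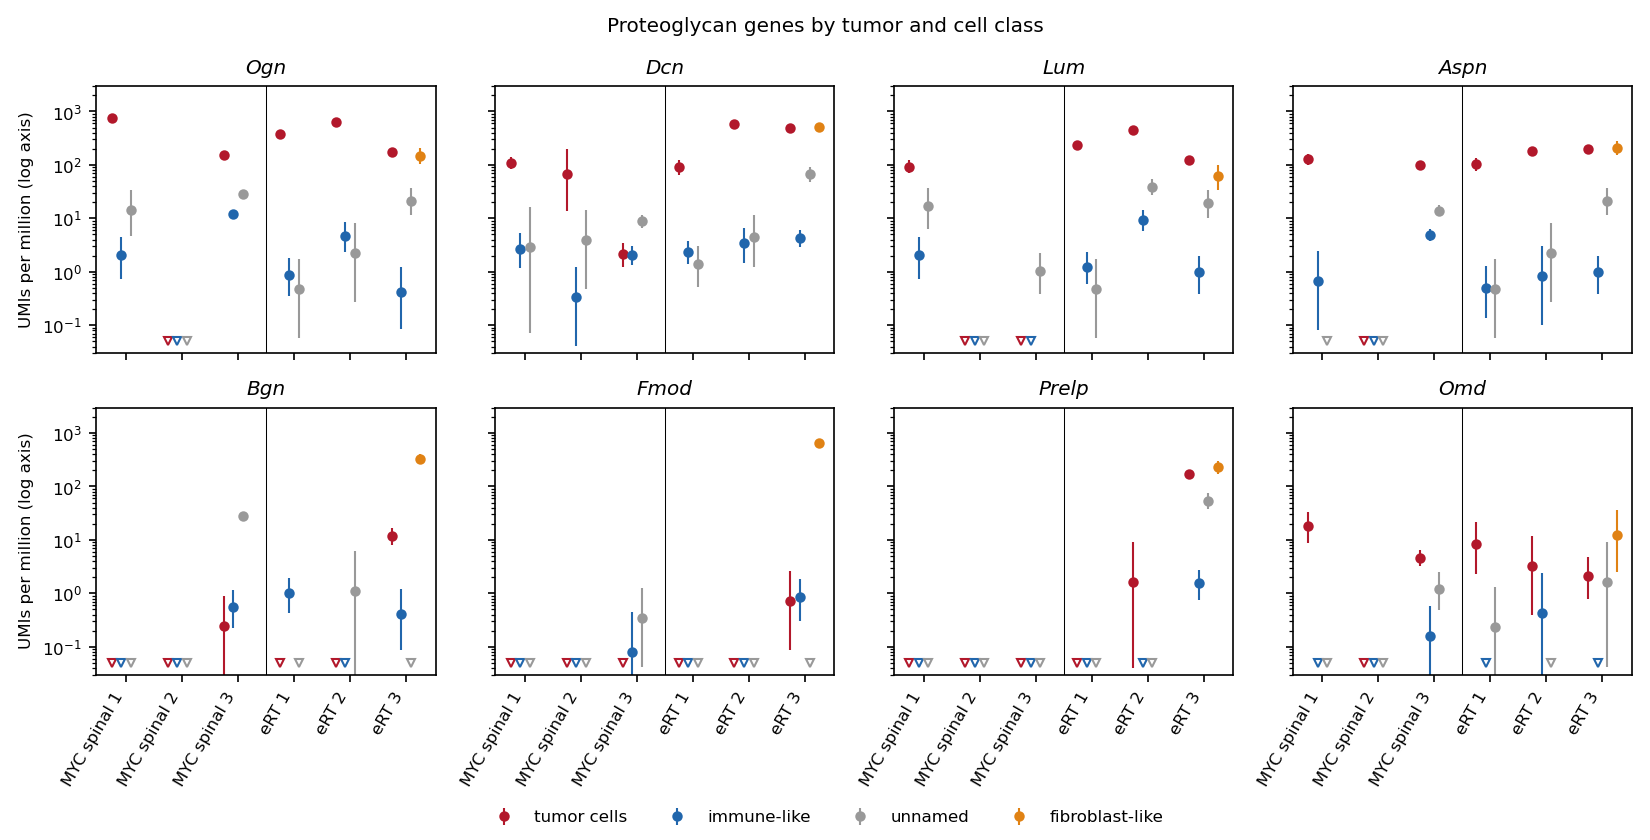
Level in CPM (log axis) of each member in tumor cells, immune-like cells, unnamed cells and fibroblast-like cells of each tumor, with exact 95% Poisson intervals; classes of under 10 cells are not drawn and open triangles mark 0 UMIs or a gene not listed. *Ogn* and *Aspn* lie above 100 CPM in tumor cells of every tumor but MYC spinal 2, *Dcn* and *Lum* are near or at 0 in MYC spinal 3, and *Fmod* stands high only in the fibroblast-like cells of eRT 3 among the classes drawn.

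The make-up of the members' UMIs differed from tumor to tumor. *Ogn* made up 68.8% of the 615 member UMIs in tumor cells of MYC spinal 1, 59.0% of 2119 in MYC spinal 3 and 46.3% of 380 in eRT 1, but 33.7% of 1146 in eRT 2 and 14.8% of 3252 in eRT 3. *Dcn* led in eRT 3 with 41.6% and fell just short of *Ogn* in eRT 2 with 31.8%. *Aspn* and *Ogn* together were nearly the whole sum in MYC spinal 3, where *Aspn* alone made up 38.4%. *Lum* contributed 28.9% in eRT 1 and 24.5% in eRT 2. These shares are of 1 library each and were not tested.

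**Figure D2:**
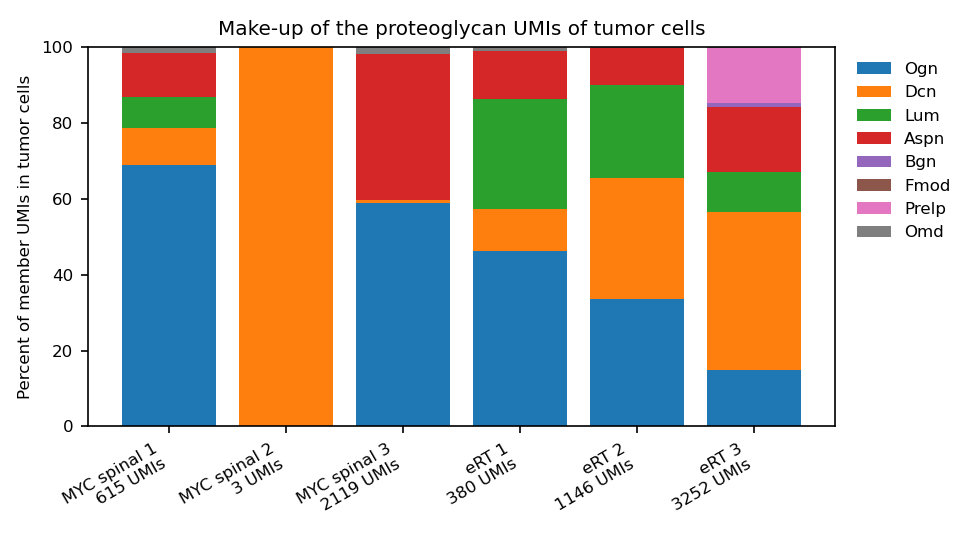
Percent of the members' UMIs in tumor cells that belong to each gene, 1 bar per tumor, with the number of member UMIs under it. *Ogn* takes the largest share in MYC spinal 1 and 3 and in eRT 1 and 2, *Dcn* in eRT 3, and *Prelp* is visible only in eRT 3; the bar of MYC spinal 2 rests on 3 UMIs.

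The first question was whether the members were higher in tumor cells than in the remaining cells of the same tumors. In eRT, 4 of the 5 members that passed the filter on low counts rose, each in 3 of 3 tumors, where 8.37% of 9911 genes tested were called higher, and 0 fell, where 10.4% were called lower. *Ogn* was higher by a log2 fold change of 6.77 ± 0.94 (SE; edgeR adjusted p = 0.00677). For *Lum* the log2 fold change was 5.27 ± 0.59 (edgeR adjusted p = 0.00437), for *Aspn* 5.07 ± 0.43 (0.00297) and for *Dcn* 4.24 ± 0.36 (0.00294). The median over the 5 tested members was 5.07, and over all genes −0.003. *Fmod*, *Prelp* and *Omd* did not pass the filter. The filter used the sums of both classes, and *Ogn* (0.74 to 6.48 CPM), *Lum* (1.80 to 22.7) and *Aspn* (1.39 to 8.85) were low in other cells. They passed it with the help of the tumor-cell sums, where they are high. The members were also chosen with earlier results of these data known. The shares and medians of all genes are therefore no independent yardstick for the members. These calls hung on which cells served as reference. With immune-like cells alone the 4 changes were 6.39 to 7.97, all called. Against the other cells that are not immune-like they were 2.43 to 6.07 with adjusted p between 0.0556 and 0.162, and 0 members were called by edgeR (5 at an unadjusted p under 0.05).

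*Bgn* was the tested member that did not rise in eRT (log2 fold change −1.18 ± 0.93, edgeR adjusted p = 0.448), and it was higher in the tumor cells of 1 of 3 tumors. Its direction rested on a cluster of 84 fibroblast-like cells, 78 of them from eRT 3, whose *Smarcb1* level of 0.29 of that expected lay just above the limit. With the limit at 0.5, which counts this cluster as tumor, the log2 fold change of *Bgn* was 6.42 (edgeR adjusted p = 0.00108) and 6 of 6 tested members were called higher. With the fibroblast-like cells left out altogether, an alternative chosen after seeing the data, 4 members were tested and all were called, with *Dcn* at 6.03 and *Ogn* at 7.43. As each eRT was left out in turn, *Ogn* lay between 5.73 (without eRT 1) and 7.90 (without eRT 3), *Lum* between 4.51 (without eRT 1) and 5.74, *Aspn* between 4.59 and 5.43 and *Dcn* between 3.94 and 4.43.

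In MYC spinal tumors, *Ogn* and *Aspn* rose, 2 of the 3 members that passed the filter, where 4.19% of 10403 genes were called higher, and 0 fell, where 7.33% were called lower. *Ogn* was higher by a log2 fold change of 5.05 ± 1.04 (edgeR adjusted p = 0.0066) and *Aspn* by 4.88 ± 0.90 (0.00405), each in 2 of 3 tumors, since neither was listed in MYC spinal 2. *Dcn* had a log2 fold change of 3.01 ± 1.39 (adjusted p = 0.236). The median over the 3 tested members was 4.88, and over all genes −0.11. The limits of the filter and of the choice of members apply here too, with *Ogn* at 0 to 17.4 CPM and *Aspn* at 0 to 7.81 CPM in other cells. Without MYC spinal 2, *Ogn* and *Aspn* stood at 5.02 and 4.84 but 0 genes of 11487 were called by edgeR (adjusted p = 0.117 and 0.0879), with 2295 genes and 3 members at an unadjusted p under 0.05. With all 3 tumors DESeq2 called 3 members, *Dcn* among them. With all 3 tumors, edgeR called 0 members at the coarser cluster resolution of 0.4 and at the *Smarcb1* limit of 0.5, which put 342 and 1351 cells of MYC spinal 2 among the tumor cells, with no replicate block, and against other cells that are not immune-like, where *Ogn* alone was tested. Without MYC spinal 1, *Aspn* was still called (adjusted p = 0.028) and *Ogn* was not (2.98, adjusted p = 0.0572), and without MYC spinal 3 neither could be tested and *Dcn* was called (5.21, adjusted p = 2.66e-04).

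**Figure D3:**
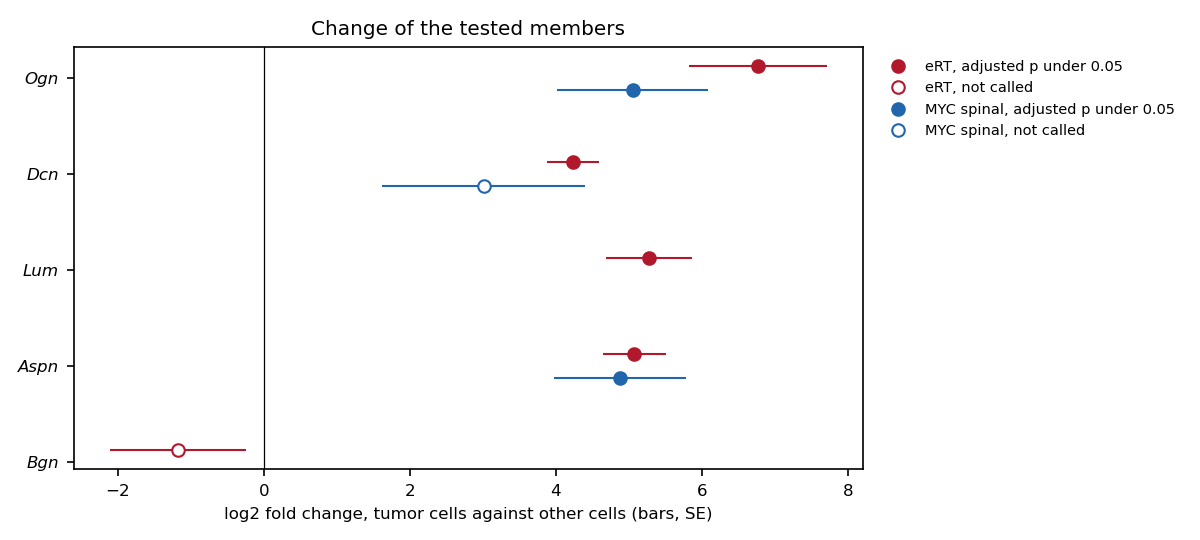
Log2 fold change of each tested member in tumor cells against the other cells of the same tumors (points, edgeR; bars, SE), for eRT in red and MYC spinal in blue; filled points have an adjusted p under 0.05. *Ogn* and *Aspn* lie near or above 5 in both subtypes, *Dcn* and *Lum* are filled in eRT, and *Bgn* lies below 0 without a call.

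Fibroblast markers, taken as a sum, were higher in tumor cells than in the other cells. The list of 12 genes, which holds no member, summed to 645 to 3219 CPM in tumor cells and 16.1 to 264 CPM in the other cells, with 7 to 11 of 12 genes detected in tumor cells. *Col1a1*, *Col1a2*, *Col3a1*, *Pdgfra*, *Pdgfrb* and *Lox* were found in the tumor cells of each of the 6 tumors, while *Dpt* was at 0 in all of them. The part of this in the members' levels was not tested.

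The second question was whether the subtypes differed. In the change from other to tumor cells, 0 of 6 tested members and 0 of 11468 genes (0%) were called by edgeR, with 0 members and 279 genes at an unadjusted p under 0.05, and DESeq2 called 0 members and 3 genes. The largest member differences, eRT minus MYC spinal, were 3.85 ± 2.01 for *Bgn* and 2.91 ± 1.61 for *Lum* (edgeR adjusted p = 1 for each). The direction of *Bgn* turned, to −4.20 with DESeq2, −3.24 without eRT 3 and −1.33 without MYC spinal 3. Between the tumor cells alone, 0 of 4 tested members and 0 of 5623 genes (0%) were called by edgeR, with 1 member and 199 genes at an unadjusted p under 0.05, and DESeq2 called 0 members and 20 genes. There *Dcn* stood 3.39 ± 1.34 and *Lum* 3.49 ± 1.72 higher on the log2 scale in eRT, against 0.81 ± 1.08 for *Ogn* and 1.26 ± 0.71 for *Aspn* (adjusted p = 0.9997 for each). The tumor-cell means of *Dcn* were 388 ± 264 CPM in eRT and 59.6 ± 54.1 in MYC spinal, and those of *Lum* 271 ± 168 and 31.0 ± 53.7 (SD, n = 3 tumors each).

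Tumor cells held most of the members' UMIs. They carried 94.8% of the 649 member UMIs in MYC spinal 1, 74.6% of 2842 in MYC spinal 3, and 71.2%, 82.9% and 82.2% in eRT 1, 2 and 3, while making up 3.69 to 30.5% of all UMIs of these tumors. In MYC spinal 2, all cells together held 7 member UMIs. Immune-like cells carried 1.72 to 8.99% of the member UMIs in the 5 tumors other than MYC spinal 2.

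Of the member UMIs outside tumor and immune-like cells, fibroblast-like cells held 93, 149 and 523 in eRT 1, 2 and 3. Unnamed cells held 471 in MYC spinal 3 and 113 in eRT 3. In the 78 fibroblast-like cells of eRT 3, *Fmod* was the highest member and reached 663 CPM (565 to 774; 51 of 78 cells), *Dcn* 503 CPM, *Bgn* 325 CPM and *Prelp* 231 CPM. All 79 *Bgn* UMIs were in 14 cells. The 4 fibroblast-like cells of eRT 2 held 63 *Dcn* and 44 *Bgn* UMIs. The 2 of eRT 1 held 51 *Dcn* and 21 *Bgn* UMIs but no *Ogn*, and they alone gave 17.4% of the member UMIs of that tumor. In the tumor cells of eRT 3, *Fmod* was at 0.72 CPM against 173 CPM of *Ogn*. These contrasts are within 1 tumor and were not tested, and *Fmod* was also among the genes with the highest fold in the fibroblast-like cluster although it had not been used to form it.

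In MYC spinal 3, an unnamed cluster led by *Klk8* and *Timp1*, with a *Smarcb1* level of 0.47 of that expected, held 207 cells of MYC spinal 3, in which 18 cells carried 154 *Bgn* UMIs and 5 cells carried 40 *Dcn* UMIs. Those 154 UMIs are most of the 172 of *Bgn* in all cells of MYC spinal 3. Unnamed cells of MYC spinal 3 also held 163 *Ogn* and 80 *Aspn* UMIs, and its immune-like cells 154 and 62. The ratio of *Ogn* to *Aspn* UMIs was 1.54 in the tumor cells and 2.48 in the immune-like cells of MYC spinal 3, whose osteoclast-like and macrophage- or monocyte-like cells had an *Ogn* UMI in 3.28% and 3.02%. In eRT 3, a cluster led by cell cycle genes such as *Top2a*, which stayed unnamed and outside the tumor class, held 53 cells of that tumor, 18 with *Dcn*, 15 with *Prelp* and 7 with *Ogn*.

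Shares of cells with a UMI depend on depth, so cells were also reduced at random to 1000 UMIs each, a step that left out 1 tumor cell of MYC spinal 1, 2 from MYC spinal 2 and 22 from eRT 2. At that depth *Ogn* was found in 44.2% of tumor cells in MYC spinal 1 (95% binomial interval 34.02 to 54.8), 13.9% in MYC spinal 3, 29.4% in eRT 1, 45.3% in eRT 2 and 16.1% in eRT 3. As sequenced, at medians of 2018 to 6142 UMIs per tumor cell, the shares in these tumors were 79.2, 43.4, 66.2, 62.6 and 39.0%. Among immune-like cells, also at 1000 UMIs, *Ogn* was found in 0.96% of cells in MYC spinal 3 and in at most 0.29% elsewhere.

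In MYC spinal 3 and eRT 2, clusters of tumor cells differed beyond counting error in some of the members they carried. In eRT 1 and eRT 3, the intervals of the clusters overlapped for each member. The tumor cells of MYC spinal 3 split into 1359 cells of a cluster shared with MYC spinal 1 and 2 and 96 cells of a cluster found in MYC spinal 3 alone, led by *Cldn6*, *Cdh3* and *Six3*. As sequenced, the small cluster had *Ogn* in 56 of 96 cells (156 UMIs) but *Aspn* in 1 of 96 (2 UMIs), where the large one had *Ogn* in 575 and *Aspn* in 357 of 1359. At 1000 UMIs, in a separate random draw for the clusters, *Ogn* was found in 17.7% (10.7 to 26.8) of the small cluster and 15.2% of the large one, and *Aspn* in 0% (up to 3.77) and 11.99% (10.3 to 13.8).

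In eRT, 2 clusters of tumor cells were present in all 3 tumors. One was led by *C1qtnf3* and *Efemp1* and the other by genes that included *Gap43*, *Npy* and *Mgp*, and also *Ogn* and *Lum*. At 1000 UMIs the first cluster of eRT 2 had *Dcn* in 46.4%, *Aspn* in 26.8% and *Ogn* in 28.6% of 56 cells, and the second in 19.5%, 5.69% and 45.5% of 123 cells. In eRT 3, *Dcn* had the same order, in 30.4% of 556 and 22.0% of 41 cells (26.6 to 34.4 and 10.6 to 37.6). *Ogn* had the opposite one, in 16.9% (13.9 to 20.3) and 4.88% (0.60 to 16.5). *Aspn* stood at 16.4% (13.4 to 19.7) and 22.0% (10.6 to 37.6). The intervals of the 2 clusters overlapped for each of these genes in eRT 3. For *Ogn* they also overlapped in eRT 2 (17.3 to 42.2 and 36.5 to 54.8). The smaller tumor eRT 1 had its own split, in which 38 cells with epithelial markers held *Ogn* in 28.9%, *Lum* in 15.8% and *Aspn* in 15.8%. Cells of 1 tumor are not replicates, so these shares are descriptions.

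**Figure D4:**
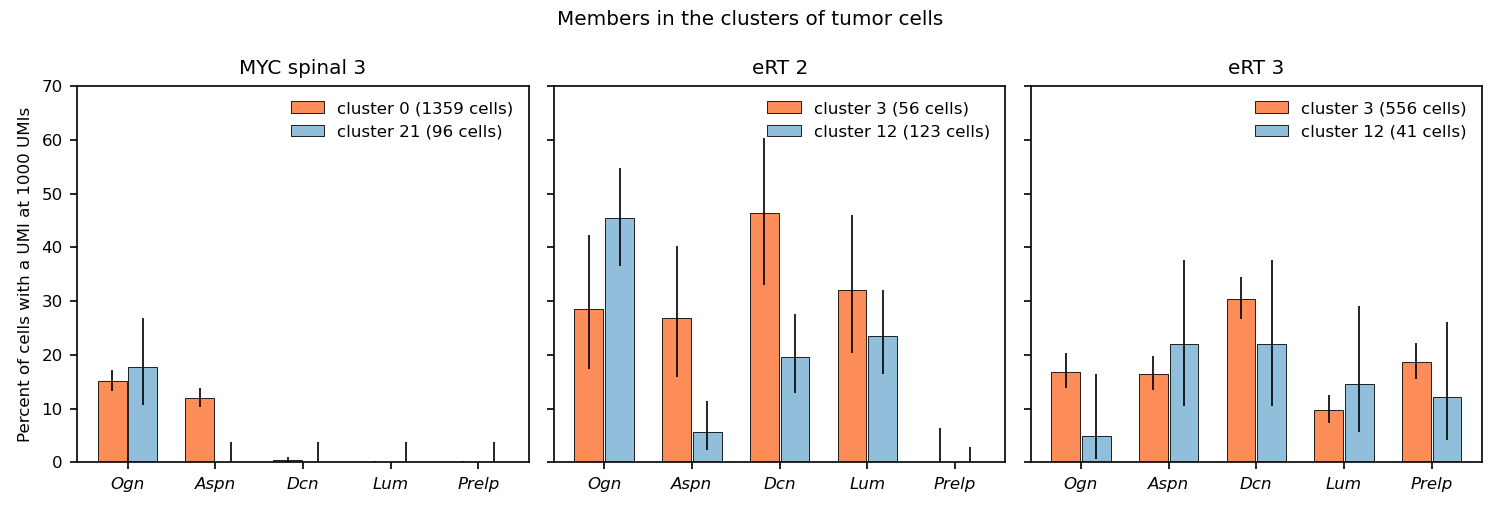
Percent of tumor cells with at least 1 UMI of a member after thinning to 1000 UMIs, by cluster, in MYC spinal 3 and in eRT 2 and 3 (bars, exact 95% binomial intervals). *Aspn* is missing from the 96 cells of the small cluster of MYC spinal 3 while *Ogn* is not. The order of the 2 clusters for *Ogn* is opposite in eRT 2 and 3, with overlapping intervals in each.

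Single tumor cells often carried more than 1 member. As sequenced, 54.2% of tumor cells in MYC spinal 1, 15.4% in MYC spinal 3, 48.5% in eRT 1, 56.2% in eRT 2 and 65.8% in eRT 3 had UMIs of at least 2 members, and the most members in 1 tumor cell was 5, in eRT 2 and 3. At 1000 UMIs the shares were 15.8%, 3.23%, 17.6%, 32.0% and 24.6%. In immune-like cells at that depth the share was 0.082% at most, in MYC spinal 1.

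Which members were found together was compared at 1000 UMIs over tumors with at least 5 positive cells of both genes. *Aspn* was found in 19.3% of *Ogn*-positive and 9.81% of *Ogn*-negative tumor cells on average, and the share was higher with *Ogn* in 5 of 5 tumors (difference 9.49 ± 3.64 percentage points, SD). In MYC spinal 3, which has the most cells, it was 22.3% (16.7 to 28.6) of 202 positive and 9.10% (7.56 to 10.8) of 1253 negative cells. *Lum* was found in 30.6% of *Dcn*-positive and 13.9% of *Dcn*-negative cells, higher in 4 of 4 tumors (16.7 ± 5.88). Both pairs are close on their chromosomes. *Ogn* with *Lum* (8.55 ± 7.14, higher in 4 of 4 tumors) and *Dcn* with *Aspn* (5.19 ± 1.98, 4 of 4), which lie on different chromosomes, gave the same direction. *Omd*, which lies between *Aspn* and *Ogn*, had 11 positive tumor cells in MYC spinal 3. There it was found in 0% (up to 1.81) of 202 *Ogn*-positive and 0.88% (0.44 to 1.57) of 1253 *Ogn*-negative cells. Its shares were 0.63% (0.016 to 3.45) of *Aspn*-positive and 0.77% (0.37 to 1.41) of *Aspn*-negative cells. The *Dcn* pairs rest on few cells in MYC spinal 1 and eRT 1, with 6 *Dcn*-positive cells each. In each of these tumors 1 of the 6 held *Aspn* (16.7%, 0.42 to 64.1) and 2 held *Lum* (33.3%, 4.33 to 77.7). The differences of *Ogn* with *Dcn* (−0.13 ± 8.39, 3 of 4) and *Lum* with *Aspn* (0.83 ± 4.40, 2 of 4) were smaller than their SD. In eRT 3, *Prelp* was found in 21.9% of *Ogn*-positive against 14.0% of *Ogn*-negative cells and in 22.3% of *Aspn*-positive against 13.8% of *Aspn*-negative cells, with overlapping intervals. The clusters of tumor cells were pooled in these shares, and the part of their different make-up was not tested.

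**Figure D5:**
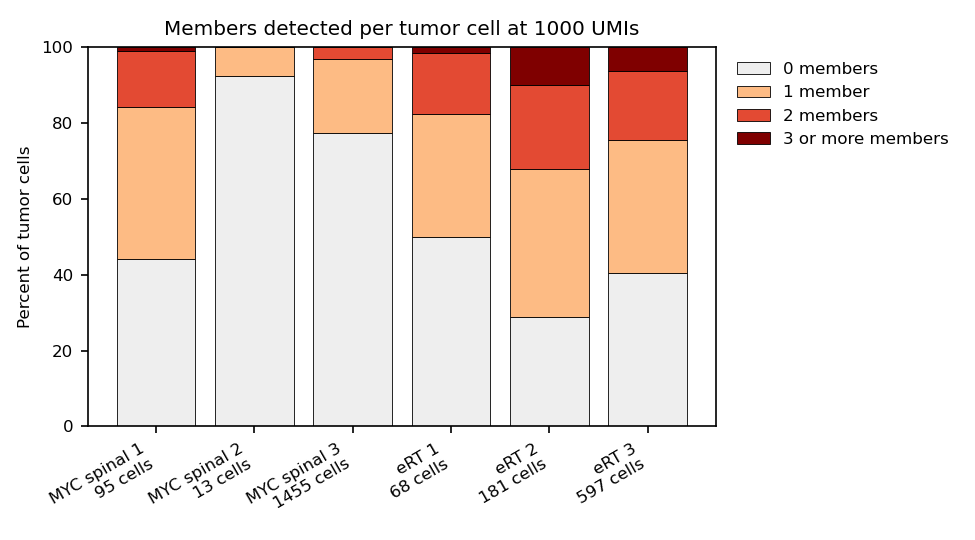
Percent of tumor cells in which 0, 1, 2 or at least 3 members were detected after thinning to 1000 UMIs, 1 bar per tumor with its number of cells. The share with at least 2 members is highest in eRT 2, at 32.0%, and lowest, among tumors with more than 13 cells, in MYC spinal 3, at 3.23%.

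The UMIs were gathered in part of the cells. The tenth of tumor cells with the most UMIs of a gene held 38.3 to 49.7% of the *Ogn* UMIs in the 5 tumors that listed it, 50.9 to 78.6% of the *Dcn* UMIs in the 4 tumors with at least 20, and 54.4 to 79.3% of the *Aspn* UMIs. The highest count in a tumor cell was 37 UMIs, of *Dcn* in eRT 3.

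Likeness of patterns was measured as Pearson's r of log2(CPM + 10) over 18 sums, made of the tumor, immune-like and other cells of each tumor, among 14116 genes. The sums share tumors and libraries, and r is a description. *Ogn* was most like *Slc4a3* (r = 0.98) and *Evc2* (0.958), *Aspn* like *Ltbp4* (0.974) and *Cdc42ep5* (0.968), and *Omd* like *H2afy2* (0.986) and *Farp1* (0.967). *Lum* was most like *Rhoj* (0.915) and *Dkk2* (0.914), *Dcn* like *Ccdc80* (0.897) and *Peak1* (0.894), and *Bgn* like *Nnmt* (0.907) and *Wisp2* (0.893). *Prelp* was most like *Dbx2* (0.986) and *Irx5* (0.984) and *Fmod* like *Calcb* and *Cpxm2* (1.0 for each after rounding), which rests on the sums of eRT 3 that carry these genes. Among the members, *Ogn* was closer to *Aspn* (0.934) and *Omd* (0.854) than to *Bgn* (0.011) or *Fmod* (0.093), and *Dcn* was closest to *Lum* (0.85).

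Other genes of the pathway were taken from lists of names. Of 10 further small leucine-rich proteoglycans, 3 were tested in eRT. *Epyc*, which encodes a cartilage proteoglycan and is separated from *Lum* by *Kera*, rose by 6.08 ± 0.49 on the log2 scale (edgeR adjusted p = 0.00294), and *Tsku*, which encodes a secreted inhibitor of morphogens, by 2.79 ± 0.57 (0.0217). In the fit of the MYC spinal tumors, 2 of the 10 were tested and 0 were called. Of the 13 genes that build the linkage and the chains, 11 were tested in each subtype. In the fit of the eRT, 2 of the 11 rose, where 8.37% of all genes tested were called higher. They were *Csgalnact1* (3.66 ± 0.96, edgeR adjusted p = 0.0481) and *Chpf* (2.47 ± 0.31, 0.00544), which start and extend chondroitin chains. In the fit of the MYC spinal tumors, 0 were called. Among the epimerases and sulfotransferases, 1 of 8 tested rose in eRT, *Dsel* (3.34 ± 0.62, adjusted p = 0.0164), which encodes an epimerase of dermatan sulfate, and 0 of 7 in MYC spinal.

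Collagens, the partners that these proteins coat, rose in the main fits of both subtypes. In the fit of the eRT, 6 of 8 tested genes rose and 1 fell. *Col1a2* stood at 5.54 ± 1.07 (edgeR adjusted p = 0.0179) and *Col5a2* at 5.49 ± 0.99 (0.0146), both chains of fibrillar collagens. *Col14a1*, a fibril-associated collagen, was down at −3.09 ± 0.54 (0.0132). In the fit of the MYC spinal tumors, 4 of 6 rose and 0 fell, again led by *Col1a2* (7.35 ± 1.11, adjusted p = 0.0015) and *Col5a2* (6.49 ± 1.22, 0.00367). *Col1a1*, *Col1a2* and *Col3a1* are also on the fibroblast marker list.

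Receptors, ligands and partners split by direction. In the fit of the eRT, 4 of 14 tested rose, led by the receptor gene *Egfr* (5.13 ± 0.63, edgeR adjusted p = 0.00503) and the fibrillin gene *Fbn1* (4.45 ± 0.84, 0.017). Another 6 fell, led by *Tlr4* (−5.32 ± 0.82, 0.00879) and the complement gene *C1qa* (−4.20 ± 0.43, 0.00357). In the fit of the MYC spinal tumors, 3 of 15 rose, led by *Fbn1* (5.40 ± 1.16, adjusted p = 0.0071) and *Tgfb3* (5.15 ± 0.75, 0.00129). Another 4 fell, led by *C1qb* (−5.02 ± 0.71, 0.00128) and *C1qc* (−4.84 ± 0.73, 0.00147). *C1qa* and *C1qb* also serve here as macrophage markers, and immune-like cells made up most of the reference. Of the enzymes that process or cleave the proteins, 3 of 5 tested rose in eRT, led by the protease gene *Adamts1* (5.73 ± 1.02, adjusted p = 0.0142) and *Pcolce* (4.60 ± 1.21, 0.0485), which encodes an enhancer of procollagen cleavage. *Bmp1*, the procollagen C-proteinase that also trims probiglycan, rose in MYC spinal (3.37 ± 0.87, adjusted p = 0.0217), and *Gzmb*, the granzyme B gene of killer cells, fell in both subtypes (−5.87 ± 0.61, adjusted p = 0.00368, in eRT and −5.28 ± 0.88, 0.00205, in MYC spinal). Beside these counts, 18.8% of all genes tested were called in eRT, 8.37% higher and 10.4% lower. In MYC spinal it was 11.5%, with 4.19% higher and 7.33% lower. No list was tested as a set against these shares.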

How the data were processed

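Single-cell RNA libraries of 6 tumors were analysed from the UMI counts that the authors deposited, a table of genes by cells for each tumor, without normalization. According to the submitters' processing notes the authors used Cell Ranger 2.0.2 and mm10. Names in the tables are cell numbers, so barcodes shared between libraries could not be counted.

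A cell needed 200 or more genes and no more than 25% of its UMIs from mitochondrial genes. This left 3841706 to 26184224 UMIs per tumor and medians of 916 to 5211 per cell. Seurat 5.3.0 was used to integrate the 3 tumors of each subtype (2000 variable genes, the members, the listed genes and genes named in the paper left out, 30 dimensions, 20 neighbors, resolution 0.8). Clusters took a name from at least 3 markers detected in 10% of the cluster or more, each with a log2 fold change of 1 or higher. Scrublet (scanpy 1.11.5) marked 20 of 22163 cells (0.0902%), so the caller had not worked, and doublets were left in. UMIs were summed per tumor and class of at least 10 cells and tested with edgeR 4.0.16 (quasi-likelihood, TMM, filterByExpr, tumor as block within subtypes, Benjamini-Hochberg, threshold 0.05) in R 4.3.3. The block is the tumor itself, since both sums come from the same animal. DESeq2 1.42.0 was an alternative. Cell filters and doublet scores were applied to the clusters already found, without clustering again. Intervals were computed with scipy 1.17.1. The test scripts were tested on simulated data.

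Named genes were the 8 members, up to 2 called genes per list and direction with the largest change, and the 2 genes most like each member with at least 20 UMIs. The members and lists were chosen with earlier results of these data known. Replicates are 3 tumors from separate mice per subtype.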

Additional observations from a re-analysis of the deposited data

How the results depend on the processing

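With 3 tumors per subtype, depth limits the members most in MYC spinal 2, where 3 UMIs were worth 67.1 CPM in tumor cells. In eRT the 4 members called stayed called under every alternative but one, the reference of other cells that are not immune-like, where 0 members and 282 genes were called. All genes called in eRT numbered 1863 and moved to 1231 at resolution 0.4, 1170 with members and listed genes kept in the clustering and 1215 with no replicate block, and lay between 1095 (without eRT 3) and 2034 as tumors were left out (members, 4 to 5). *Bgn* in eRT turned to 6.42 with the *Smarcb1* limit at 0.5. In MYC spinal, 2 members and 1199 genes were called. These became 5 and 2207 without the filter on low counts, 0 and 0 at resolution 0.4 and at the limit of 0.5, which put 342 and 1351 cells of MYC spinal 2 among the tumor cells, 0 and 443 with no replicate block, and 0 and 278 against other cells that are not immune-like, where 1 member was tested. Leaving out tumors gave 0 to 1 members and 0 to 955 genes (794 without MYC spinal 3). The difference in change between subtypes, 0 members and 0 genes, gave 3 genes by DESeq2, 2 at resolution 0.4, 3 with listed genes kept in the clustering and 0 to 1 as tumors were left out (members, 0 in each). In eRT against MYC spinal tumor cells DESeq2 called 20 genes, and leaving out tumors gave 0. With the mouse model as covariate 0 genes were called. Uncalled differences between subtypes changed sign. Without MYC spinal 3, *Ogn* stood at −0.61, *Dcn* at −1.01, *Aspn* at −2.07, *Bgn* at −1.33 and *Omd* at −3.77, and the highest values as tumors were left out were 3.78, 3.82, 1.54 and 4.78 for the first 4. *Aspn* also stood at −0.15 with DESeq2, −0.24 without the highest doublet scores, −0.22 at resolution 0.4, −0.42 against other cells that are not immune-like and −0.18 without eRT 1, and *Bgn* at −4.20 with DESeq2 and −3.24 without eRT 3. *Omd* stood at 0.008 with the limit at 0.5, 0.41 without fibroblast-like cells, 0.13 against immune-like cells alone, 0.65 without MYC spinal 1 and 0.79 without eRT 3. The share of tumor cells with at least 2 members, 15.6% on average over 6 tumors at 1000 UMIs, was 40.0% as sequenced, 6.33% at 500 UMIs and 2.93% when a member needed 2 UMIs. The share of member UMIs held by tumor cells, 74.7% on average over 6 tumors (MYC spinal 2 with 3 of 7 UMIs), lay between 77.5 and 83.6% under its alternatives. The causes of these changes were not tested.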
